A study of Rattus norvegicus with 6 samples.

Results

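Cytosolic ribosomal protein genes were followed through RNA-seq of alveolar tissue from rats, that is, of the jaw around the tooth roots. They were chosen by name alone: rows of the count table whose symbol is Rps or Rpl with a number and a short suffix, together with Rplp0, Rplp1, Rplp2 and Rpsa. The rule took 101 of 37203 rows. Of these, 76 are the genes of the ribosome itself, with 31 for the small subunit, 42 for the large subunit and 3 for the stalk. A further 8 are paralogs with names of their own (Rpl3l, Rpl7l1, Rpl10l, Rpl22l1, Rpl36al, Rpl39l, Rps27l and Rps4y2), and 17 are numbered copies such as Rps15al4. Rpl37a was not analysed here, and Fau and Gnb2l1 encode ribosomal proteins under names outside the rule.

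The series asked how corticision, a surgical cut into the cortical bone, alters the tissue during orthodontic tooth movement. It holds 6 single-end libraries of total RNA, 3 titled case (numbers 5, 6 and 9) and 3 titled control (numbers 5, 6 and 10). In the source field, however, the case libraries are tooth movement without corticision and the control libraries tooth movement with it, the opposite of what the titles would usually mean. Groups are named here by title, every difference is case minus control, and which of the labels is right was not settled. All 6 are rats with tooth movement, and the labels give no strain, age or time. Nothing in them ties each library to an animal of its own, so the spread behind the p-values may be technical.

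A cytosolic ribosome contains one copy of nearly every ribosomal protein, so cells make these proteins in matched amounts. In mammals much of this matching is set at translation: the mRNAs begin with a 5′ terminal oligopyrimidine (TOP) run, a C at the first base followed by an unbroken run of C and T, through which mTORC1 and its target LARP1 control their use by ribosomes. Counts of mRNA do not measure that control or the protein made. Ribosomal protein genes are also among the richest sources of processed pseudogenes in mammalian genomes, formed when their abundant spliced mRNAs were copied back into DNA, and such copies can take reads from the gene that gave rise to them.

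The annotated starts of 6 genes that the results turn on are shown, to give the letters found there. The first base of the mRNA itself was not mapped here, so these lines do not show whether a TOP run is absent. Each line holds 10 bases before and 20 bases from the annotated start on the strand of the gene, from RefSeq promoter sequences of build GRCr8. Capitals mark the unbroken run of C and T from the first transcribed base, or, for Rps19, the lone C there.
Rplp0: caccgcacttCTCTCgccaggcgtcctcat
Rplp1: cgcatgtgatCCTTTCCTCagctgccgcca
Rpl39: taatcgcgttCTTCCggcctgtcctttctc
Rps14: ccgtctctctCTTTCCggtggaggagtctg
Rpl13: cggtgcccgaTCCTTTCCgctcggccgttc
Rps19: cttgtgcgccCgggaaaccccgtcgttccc
The windows of Rplp0 (chr12:46718371-46718400), Rplp1 (chr8:71290853-71290882) and Rpl39 (chrX:121195877-121195906) are on the minus strand. Those of Rps14 (chr18:56498250-56498279), Rpl13 (chr19:68062504-68062533) and Rps19 (chr1:89608678-89608707) are on the plus strand. The run is 9 bases long in Rplp1 and 5 in Rplp0 and Rpl39. Rpl13 has a run of 8 bases that opens with T, so it does not count as a TOP start at this annotated base. The windows of Rpsa (a run of 2 bases) and Rpl7a (no run) were also read and are not shown. Neither has a TOP start at its annotated base.

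Among 62 ribosomal protein genes with a RefSeq promoter, 23 (37.1%) had a TOP start, defined as a C at the annotated first base and 4 more bases that are C or T, against 881 of 33469 promoters in all (2.63%). When the C could lie within 5 bases of the annotated start, the counts were 39 of 62 (62.9%) against 5704 of all promoters (17.0%). The motif CTTTC occurred in the same 30-base window in 25 of 62 (40.3%) against 1136 of all promoters (3.39%). Only the strand of the gene was searched, and a CTTTC that begins at the first base is also a TOP start. A match is a description of the letters at the annotated start.

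Library totals ranged from 10886303 to 14433740 counts. The tissue carried bone transcripts: the 8 osteoblast and bone matrix genes took 6.27% to 13.1% of counts in case libraries and 8.13% to 10.6% in control libraries. Oral epithelium genes took 0.00339% to 0.00657% in case libraries and 0.00282% to 0.436% in control libraries, the top of that range being control 5. Genes of B and plasma cells took 0.0180% to 0.0226% in case and 0.00667% to 0.0178% in control libraries. No gene of these lists, or of any other list used, was called between the groups.

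Ribosomal protein rows took a few percent of every library, and the groups overlapped. They held 2.16% of counts in case 5, 3.42% in case 6 and 3.003% in case 9, against 2.22% in control 5, 2.95% in control 6 and 2.90% in control 10. The lowest values stood in the library numbered 5 of each group, and their 95% Wilson intervals, which cover counting error only, were 2.15% to 2.17% in case 5 and 2.21% to 2.23% in control 5. The mean was 2.86% ± 0.642 in case and 2.69% ± 0.407 in control libraries (SD, n = 3 each), a difference of 0.169 percentage points that is smaller than either SD. Leaving out 1 library moved that difference between -0.111 percentage points (without case 6) and 0.519 (without case 5), and it was -0.0657 without control 5.

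Small subunit rows held 0.803%, 1.25% and 1.09% of counts in case 5, 6 and 9, against 0.774%, 1.08% and 1.07% in control 5, 6 and 10. Large subunit rows held 0.983%, 1.55% and 1.40% in the case libraries, against 1.05%, 1.36% and 1.32% in the control libraries. The 3 stalk genes, whose products bind translation factors on the large subunit, held 0.310%, 0.522% and 0.435% in the case libraries, against 0.322%, 0.423% and 0.410% in the control libraries. In all 3 classes the library numbered 5 was the lowest of its group. Rplp0, the stalk base protein, alone held 11.7% of all member counts, and the 5 rows with the most counts held 30.9%. These are counts on rows, not levels per length of RNA.

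**Figure D1:**
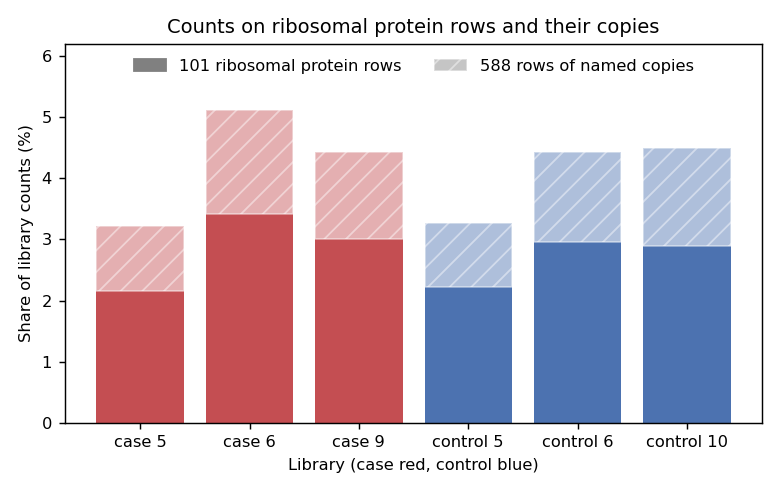
Share of all counts (y axis, percent) in each library (x axis, case in red and control in blue) on the 101 ribosomal protein rows (solid) and on 588 rows of their named copies (hatched). The 2 parts add up to 3.21% in case 5 and 3.28% in control 5, and to between 4.43% and 5.12% in the other 4 libraries.

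The same library pattern ran through the single rows. CPM, the counts of a row scaled to equal library size, were computed with sizes adjusted by TMM (trimmed mean of M-values), and 95 rows passed the filter on low counts. The median of their log2 CPM, each row centred on its own mean over the 6 libraries, was -0.40 in case 5, 0.19 in case 6 and 0.08 in case 9, against -0.40 in control 5, 0.28 in control 6 and 0.26 in control 10. Only 5 of the 95 rows lay above their own mean in case 5 and 7 in control 5, against 64 to 86 in the other libraries.

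In 74 of 95 rows (77.9%) both libraries numbered 5 were the lowest of the 6, which held for 17.8% of all 16066 tested genes. The number 5 libraries lay below the other 4 by a median of -0.60 in log2 CPM over the ribosomal protein rows and stood 0.01 apart over all genes. TMM scaling evens out the typical gene between libraries, so the small value over all genes follows from the scaling. No label says what the number marks, and this grouping crosses case and control. In bulk tissue, fewer cells of a type and less RNA per cell cannot be told apart.

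Some summed marker shares also moved with the number 5. As shares of raw counts, neutrophil and skeletal muscle genes were lowest in the library numbered 5 of each group. Erythroid, proliferation and tooth-forming cell genes were highest there in these sums, but single genes of the lists did not all follow. In CPM, only Mki67, Top2a and Mcm5 of the proliferation list were highest in the library numbered 5 of both groups. Cdk1 (58.4, 60.0 and 74.2 CPM in case 5, 6 and 9) and Pcna (108, 117 and 119 CPM) were lowest in case 5. The erythroid genes Hbb, Hba1 and Hbb-b1 had higher CPM in control 6 than in control 5, and the other erythroid genes lower. Bone matrix genes were highest in case 5 but lowest in control 5 of their groups. Oral epithelium genes were highest only in control 5, and B and plasma cell genes in the library numbered 5 of neither group. Erythroid genes (10 of 12 in the table) took 2.10%, 0.196% and 0.757% of counts in case 5, 6 and 9, against 2.33%, 2.11% and 1.27% in control 5, 6 and 10. Neutrophil and myeloid precursor genes (8 of 8) took 0.870%, 1.66% and 1.97% in the case libraries, against 0.712%, 1.84% and 1.54% in the control libraries. Tooth-forming cell genes (8 of 8) took 0.0457% in case 5 and 0.000305% or less in the other case libraries, against 0.00942% in control 5 and 0.000721% or less in the other control libraries. Skeletal muscle genes (12 of 12) took 0.0135%, 0.0447% and 0.149% in case 5, 6 and 9, against 0.00107%, 0.116% and 0.121% in control 5, 6 and 10, and proliferation genes (10 of 10) 0.0953%, 0.0721% and 0.0833% in the case libraries, against 0.0948%, 0.0714% and 0.0572% in the control libraries. No gene of these lists was at 0 in all 6 libraries, and their part in the low ribosomal protein values of the libraries numbered 5 was not tested.

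**Figure D2:**
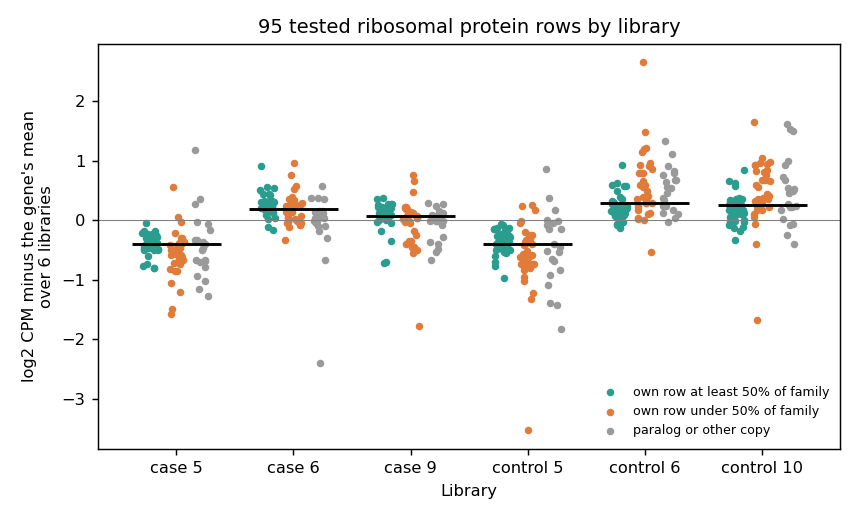
log2 CPM of the 95 tested ribosomal protein rows minus the mean of each row over 6 libraries (y axis) in each library (x axis), with a black line at the median. Points are coloured by whether the row holds at least 50% or under 50% of the counts of its gene and named copies, or is itself a paralog or copy. Medians are -0.40 in case 5 and control 5 and lie between 0.08 and 0.28 in the other 4 libraries.

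Rows differed in how far they varied. The SD of log2 CPM over the 6 libraries had a median of 0.38 over the ribosomal protein rows and 0.31 over all tested genes. It was smallest for Rpl7l1, a paralog known for a role in making the large subunit, with SD 0.07. Rpl5, which binds 5S rRNA, had an SD of 0.17, and the core protein Rpl19 had 0.18. The largest SDs belonged to Rpl8 (2.29), the muscle paralog Rpl3l (1.27), the copy Rps15al4 (1.16) and the paralog Rpl36al (1.13).

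No ribosomal protein row differed between case and control libraries at an adjusted p of 0.05. By edgeR's quasi-likelihood test with Benjamini-Hochberg adjustment over all 16066 tested genes, 0 of 95 rows passed, and 0% of all tested genes did. The smallest adjusted p was 0.999 among the ribosomal protein rows. DESeq2 called 0 of them as well, and 21 of all genes. At an unadjusted p under 0.05 there were 6 rows, 1 higher (Rps19) and 5 lower in case libraries (Rpl13, Rps15al4, Rpl21, Rps2 and Rpl39), beside 4.15% of all tested genes. That count turned on single libraries, and so did the share of all genes. Without control 5 there were 23 rows (22 of them lower), beside 7.32% of all genes, and without case 5 there were 3 rows, beside 9.54%. Without control 6 there were 0 rows beside 4.23%, without control 10 there was 1 beside 2.41%, without case 6 there were 4 beside 2.23%, and without case 9 there were 2 beside 2.84%.

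The log2 fold changes leaned towards negative values. They were negative in 69 and positive in 26 of 95 rows (72.6% negative), beside 53.7% negative over all tested genes. Scaled by library totals in place of TMM, 58 of 95 were negative (61.1%), beside 46.1% of all genes. With the title number as a block 55 were negative (57.9%), beside 53.0% of all genes. In that fit case 9 and control 10 each fill a block alone. The group difference there rests on case 5 and 6 against control 5 and 6. The median was -0.16 over the ribosomal protein rows and -0.02 over all genes, with a range of -1.59 to 1.11. With a case library left out, the median was 0.01 (case 5), -0.28 (case 6) and -0.20 (case 9). With a control library left out, it was -0.34 (control 5), -0.02 (control 6) and -0.01 (control 10). In 4 rows (4.21%), Rps19, Rpl21, Rpl31 and Rps27l, the case and control libraries did not overlap in CPM, beside 8.47% of all tested genes.

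By role, the small subunit genes had 12 positive and 19 negative fold changes with a median of -0.08 on the log2 scale. The large subunit genes had 11 positive and 29 negative with a median of -0.14, and the stalk genes 2 positive and 1 negative. The 8 paralogs had 1 positive and 7 negative values with a median of -0.14. All 13 numbered copies that could be tested had negative values, with a median of -0.37.

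Rpl13, a protein of the large subunit, had the smallest unadjusted p. It stood at 27.7, 48.6 and 34.1 CPM in case 5, 6 and 9, against 37.7, 94.2 and 98.7 CPM in control 5, 6 and 10. Control 6 and control 10 were high, while control 5 lay among the case libraries. The means were 36.8 ± 10.7 CPM in case and 76.9 ± 34.0 CPM in control libraries (SD, n = 3 each), and the log2 fold change was -1.06 (SE 0.38, adjusted p = 0.999 by edgeR's quasi-likelihood test).

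Rps15al4, a copy of the small subunit gene Rps15a, stood at 7.27, 15.8 and 12.3 CPM in case 5, 6 and 9, against 9.89, 45.3 and 51.0 CPM in control 5, 6 and 10. Control 6 and 10 were again high and control 5 again lay within the case range. Its log2 fold change was -1.59 (SE 0.58, edgeR adjusted p = 0.999).

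Rpl21, a protein of the large subunit, stood at 6.31, 9.65 and 9.50 CPM in case 5, 6 and 9, against 9.89, 16.7 and 16.8 CPM in control 5, 6 and 10. The groups did not overlap, though control 5 was only just above case 6. The log2 fold change was -0.77 (SE 0.29, edgeR adjusted p = 0.999).

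Rps19, a small subunit protein whose gene is mutated in many patients with Diamond-Blackfan anaemia, was the one row with p under 0.05 that was higher in case libraries. It stood at 84.2, 96.8 and 90.6 CPM in case 5, 6 and 9, against 68.2, 39.7 and 17.8 CPM in control 5, 6 and 10. The case libraries lay close together and above all control libraries. The means were 90.5 ± 6.29 CPM in case and 41.9 ± 25.3 CPM in control libraries (SD, n = 3 each), with a log2 fold change of 1.11 (SE 0.42, edgeR adjusted p = 0.999).

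Rps2, a small subunit protein at the entry of the mRNA channel, stood at 112, 115 and 109 CPM in case 5, 6 and 9, against 101, 281 and 231 CPM in control 5, 6 and 10. Control 5 was the lowest of all 6 libraries and the other control libraries were the highest. The log2 fold change was -0.87 (SE 0.34, edgeR adjusted p = 0.999). Rps14, a small subunit protein whose loss is linked to the 5q- syndrome in people, stood at 10.3, 15.1 and 11.9 CPM in the case libraries, against 9.89, 36.3 and 28.9 CPM in the control libraries, with a log2 fold change of -1.01 (SE 0.44).

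Rpl31, a large subunit protein, stood at 50.6, 78.6 and 76.2 CPM in case 5, 6 and 9, against 86.8, 94.4 and 87.1 CPM in control 5, 6 and 10. Case 5 was well below the rest. The log2 fold change was -0.39 (SE 0.19).

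Among the other positive values, the large subunit gene Rpl29 stood at 316, 423 and 461 CPM in case 5, 6 and 9, against 342, 349 and 282 CPM in control 5, 6 and 10. Its log2 fold change was 0.30 (SE 0.20), and that of Rpl14, another large subunit gene, was 0.22 (SE 0.18). The case and control libraries overlapped for both genes.

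**Figure D3:**
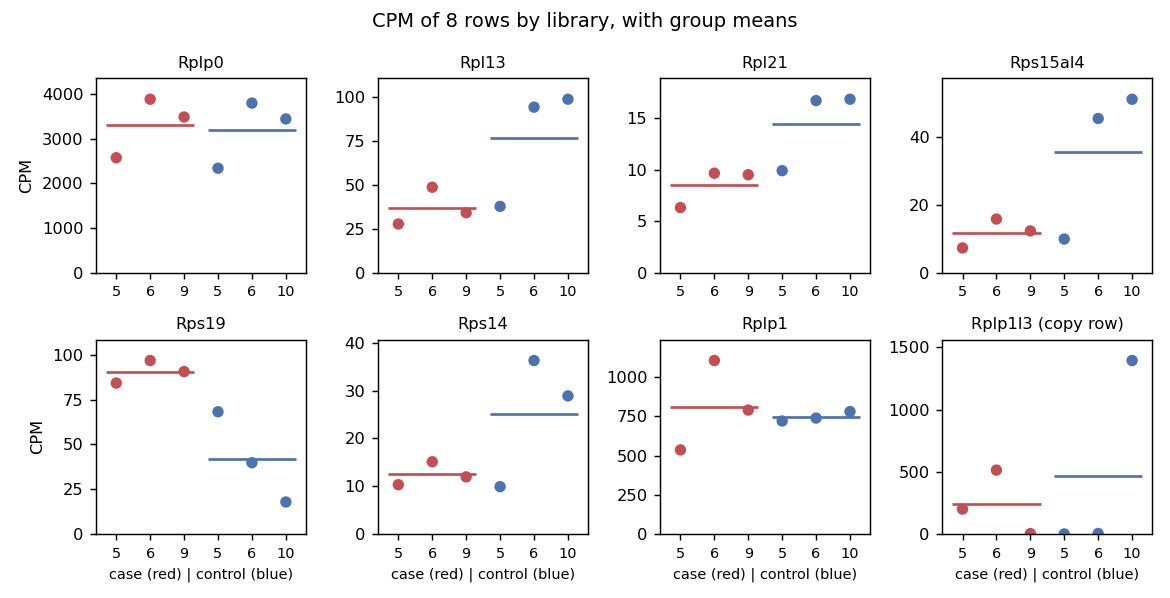
CPM (y axis, from 0, its own scale in each panel) of 7 ribosomal protein rows and of the copy row Rplp1l3 in each library (x axis, title numbers, case in red and control in blue), with lines at the group means. Rps19 is at 84.2 CPM or more in every case library and at 68.2 CPM or less in every control library, and Rpl13, Rps15al4 and Rps14 are highest in control 6 and control 10.

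The stalk genes gave group means close to each other for Rplp0 and Rplp1. Rplp0 stood at 2577, 3888 and 3491 CPM in case 5, 6 and 9, against 2341, 3802 and 3447 CPM in control 5, 6 and 10, with a log2 fold change of 0.05 (SE 0.29). Rplp1, one of the acidic stalk proteins, stood at 536, 1107 and 790.3 CPM in the case libraries, against 721, 739 and 781 CPM in the control libraries, with a log2 fold change of 0.12 (SE 0.27). The case libraries of Rplp1 surrounded the narrow control range. Rplp2, its partner, stood at 3.68, 15.3 and 10.2 CPM in case 5, 6 and 9, against 6.30, 24.4 and 15.5 CPM in control 5, 6 and 10, with a log2 fold change of -0.66 (SE 0.60).

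Rpsa, the small subunit protein also known as the laminin receptor, had a log2 fold change of 0.08 (SE 0.26). Rps27a, which is made as a fusion with ubiquitin, had -0.02 (SE 0.25), and the X-linked Rps4x had 0.12 (SE 0.20). Rpl41, the smallest ribosomal protein, had -0.24 (SE 0.33), with 633, 974 and 872 CPM in case 5, 6 and 9, against 568, 1291 and 1063 CPM in control 5, 6 and 10. The case and control libraries overlapped for each of these genes.

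Pairs of a gene and its paralog were set side by side. Rpl3 had a log2 fold change of 0.05 (SE 0.24), and its paralog Rpl3l, which replaces it in striated muscle, had -0.10 (SE 0.76). Rpl3l stood at 15.2, 1.13 and 8.07 CPM in case 5, 6 and 9, against 8.58, 11.8 and 5.58 CPM in control 5, 6 and 10. Case 6 was the low library, and its skeletal muscle genes took 0.0447% of counts, whereas case 5, highest for Rpl3l, had 0.0135%. The part of muscle in these values was not tested.

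Rps27l, a paralog known in human cells as a p53 target, stood at 26.6, 40.8 and 44.3 CPM in case 5, 6 and 9, against 47.3, 49.7 and 49.5 CPM in control 5, 6 and 10. The groups did not overlap, and the control libraries lay within a narrow range. Its log2 fold change was -0.39 (SE 0.20), beside -0.19 (SE 0.25) for Rps27.

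Rpl22l1 had -0.19 (SE 0.28), beside -0.12 (SE 0.26) for Rpl22. Rpl36al had -1.04 (SE 0.67), beside -0.37 (SE 0.45) for Rpl36a. Rpl36al stood at 6.15, 10.2 and 15.6 CPM in case 5, 6 and 9, against 4.64, 23.9 and 36.9 CPM in control 5, 6 and 10, so the control libraries spanned the case range.

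Rpl39l, a paralog known from the testis, had -0.06 (SE 0.70). It stood at 1.36, 1.06 and 1.09 CPM in case 5, 6 and 9, against 0.175, 1.73 and 1.74 CPM in control 5, 6 and 10. The control 5 value rests on 2 counts. Rpl39 itself stood at 8.15, 18.5 and 14.9 CPM in case 5, 6 and 9, against 12.5, 44.2 and 36.6 CPM in control 5, 6 and 10. Its log2 fold change was -1.17 (SE 0.48, edgeR adjusted p = 0.999), again with control 6 and 10 high and control 5 among the case libraries.

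Some rows that every cell should fill were nearly empty. Rpl7a, a core protein of the large subunit, held 0 counts in 5 libraries and 1 count in control 6, and an empty row is compatible with up to 3 counts, which is 0.208 to 0.276 CPM at these depths. Rpl35a, another core protein, held 4, 5 and 4 counts in case 5, 6 and 9, against 0, 10 and 6 counts in control 5, 6 and 10. No row was at 0 in all 6 libraries. The named copies with a row did not hold many counts for these genes either: with them, the Rpl7a family had 85 counts and the Rpl35a family 154 over the 6 libraries. There were 3 rows at 0 in at least 1 library, and 7 rows with 3 counts or fewer in at least 1. The rows left out by the filter on low counts were Rpl7a, Rpl35a, Rpl22l2, Rps15al1, Rpl34l1 and Rpl31l3.

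The counts on copies were sized next. RefSeq names 1097 copies of ribosomal protein genes, 871 of them pseudogenes and 223 annotated as protein coding. Beyond the numbered copies among the 101 rows, the table holds 588 rows of named copies, 3 of which are not current names in RefSeq. These 588 rows held 1045418 counts over the 6 libraries, against 2093670 counts on the 101 ribosomal protein rows. Of the copy rows, 80 were at 0 in every library and 105 held at least 1000 counts. The split at 50% of family counts used below, and the sums over copies, were chosen after seeing the data.

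A family here is a gene with the rows of its named copies. Of 76 families with a row for the gene itself, the own row held at least 90% of the family's counts in 22, under 50% in 35 and under 10% in 13. Copies without a row in the table add nothing to these sums, as for Rps29 and Rpl23, none of whose 21 and 6 RefSeq copies has a row. Rplp0 kept 97.1% and Rpsa 97.6% on its own row.

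At the other end, Rpl8 held 771 counts on its own row over the 6 libraries (1.91% of its family), while the pseudogene Rpl8-ps7 held 39536. Rps14 held 1388 counts (2.02%), while the transcribed pseudogene Rps14-ps7 held 67045. Rplp2 held 949 counts (3.83%), while Rplp2l2 held 17693, and Rpl30 held 840 (3.64%), while Rpl30l2 held 21418. Rps18 held 4307 counts (7.97%), while Rps18l1 held 42404. Rps2 held 11687 counts (17.2%), while the pseudogene Rps2-ps6 held 50689. In each of these families a single copy row held more counts than the gene. Rows named as copies of Rpl37a held counts as well, with 20997 on Rpl37a-ps1. The sources used here name neither the aligner nor its treatment of reads that match several places, so reads of a gene and of its copies cannot be told apart.

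The division between a gene and its copies was not the same in every library. For Rps14 the own row held 1.61%, 1.48% and 1.38% of the family in case 5, 6 and 9, against 1.55%, 2.88% and 2.71% in control 5, 6 and 10. For Rps2 it held 15.8%, 11.6% and 11.7% in the case libraries, against 12.7%, 25.3% and 25.9% in the control libraries. For Rps18 it held 5.84%, 5.99% and 5.80% in the case libraries, against 6.55%, 10.6% and 12.0% in the control libraries. In all of them control 6 and control 10 were high and control 5 was near the case libraries.

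The own row of Rpl8 held 61, 140 and 15 counts in case 5, 6 and 9, against 3, 386 and 166 in control 5, 6 and 10. On Rpl8-ps7 there were 5824, 9628 and 7161 counts in the case libraries, against 5347, 6649 and 4927 in the control libraries. Case 9 and control 5 were the low libraries of the own row. For Rps19 the order was the other way round: the own row held 17.8%, 15.3% and 14.6% of the family in case 5, 6 and 9, against 14.9%, 6.22% and 3.18% in control 5, 6 and 10.

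Among 33 tested genes with under 50% of family counts on their own row, control 6 and control 10 were the 2 highest libraries for the own-row share in 16 genes and the 2 lowest in 3. Among 41 genes with at least 50%, they were the 2 highest in 2 genes and the 2 lowest in 24. The median centred log2 CPM of the genes under 50% was -0.57, 0.14 and 0.04 in case 5, 6 and 9, against -0.59, 0.49 and 0.45 in control 5, 6 and 10. For the genes with at least 50% it was -0.32, 0.24 and 0.12 in the case libraries, against -0.36, 0.20 and 0.16 in the control libraries. In control 6 and control 10 the genes under 50% thus had the higher median, and in the other 4 libraries the lower.

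**Figure D4:**
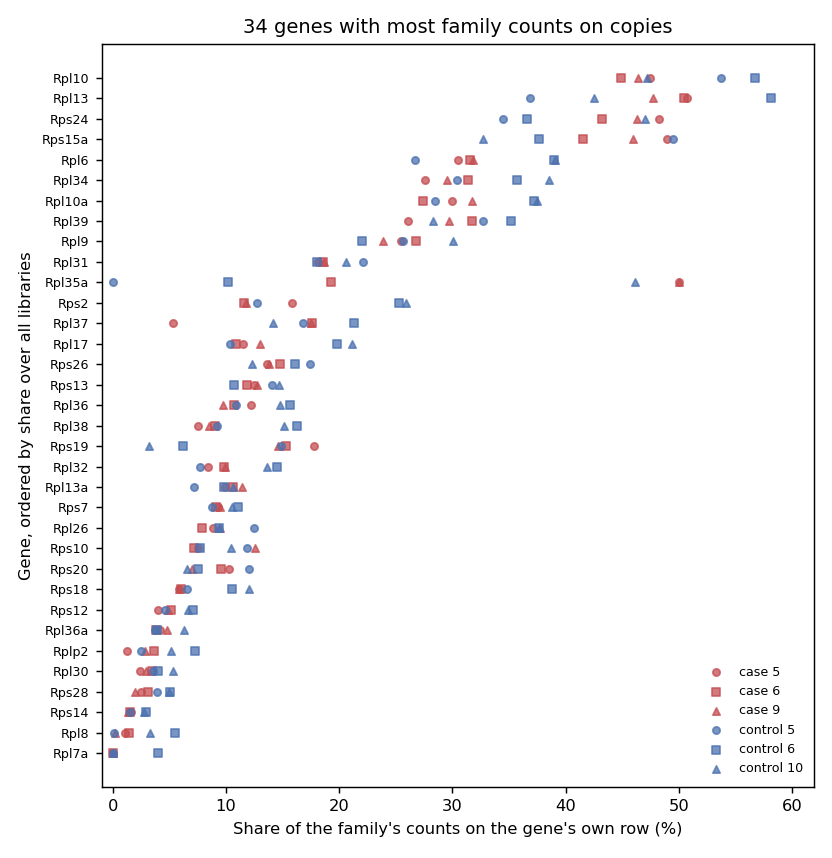
Share of family counts on the gene's own row (x axis, percent) for 34 of the 35 genes with under 50% there (y axis, ordered by the share over all libraries), 1 point per library, case in red and control in blue, with circles for the libraries numbered 5, squares for those numbered 6 and triangles for case 9 and control 10. For Rps2 the blue square and triangle lie at 25.3% and 25.9% and the other 4 points between 11.6% and 15.8%.

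Rplp1, the stalk gene, shared its counts very unevenly with 1 copy. The copy row Rplp1l3, annotated as protein coding, held 2500, 7716 and 34 counts in case 5, 6 and 9, against 0, 46 and 15257 in control 5, 6 and 10. The own row of Rplp1 held 71.7%, 67.5% and 97.4% of the family in the case libraries, against 98.4%, 95.3% and 35.5% in the control libraries. The 95% Wilson intervals were 66.9% to 68.1% in case 6 and 34.9% to 36.1% in control 10. Libraries with many and with almost no counts on the copy occurred in both groups, and case 9, control 5 and control 6 stood at the low end. Its family averaged 1076 ± 504 CPM in case and 1229 ± 842 CPM in control libraries (SD, n = 3 each).

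The case minus control values were set against the own-row share. In 12 tested genes with under 10% of family counts on the own row, the median log2 fold change of the own row was -0.49 and all 12 were negative. It was -0.25 in 21 genes with 10% to under 50% (16 negative), 0.06 in 19 genes with 50% to under 90% (8 negative) and -0.03 in 22 genes with 90% or more (13 negative). Over these 74 genes the Spearman correlation of own-row share and log2 fold change was 0.48, a description across genes that share the 6 libraries and are not independent. Copies without a row in the table do not enter the share. Rps29, none of whose 21 RefSeq copies has a row, thus falls among the genes with 90% or more.

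With the copies added to their gene and the whole table fitted again, the negative lean was smaller. The 76 families had 39 negative and 37 positive log2 fold changes and a median of -0.02, beside 49.3% negative and a median of 0.00 over all 15841 tested rows of that table. Families whose own row holds under 10% had a median of 0.08, and those under 50% a median of 0.01. By edgeR's quasi-likelihood test with Benjamini-Hochberg adjustment 0 families passed, with a smallest adjusted p of 0.999. There were 3 families with an unadjusted p under 0.05 (Rpl13, Rpl21 and the nearly empty Rpl7a), beside 4.13% of all rows of that table.

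Genes whose fold change shrank with the copies added were Rps14, with -1.01 for its own row and -0.21 for the family, and Rps2, with -0.87 and -0.06. Rps19 had 1.11 for its own row and 0.09 for the family, which averaged 582 ± 91.8 CPM in case and 548 ± 93.5 CPM in control libraries (SD, n = 3 each). The sign turned for Rpl8, with -1.56 and 0.24, for Rps18, with -0.78 and 0.06, and for Rplp2, with -0.66 and 0.29. Rps14, Rps2, Rps18, Rpl8 and Rpl38 were named after their values were seen, as were the genes given for their spread, their low counts or their copies.

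Other genes had similar values in both fits. Rpl13 had -1.06 for its own row and -1.14 for the family (SE 0.33). Rpl21 had -0.77 and -0.71 (SE 0.30), but its own row makes up 94.4% of the family. The copies with a row in the table could thus hardly move it, and copies without a row are not in that sum. Rpl39 had -1.17 and -1.05, with a family level of 47.0 ± 14.1 CPM in case and 97.2 ± 51.8 CPM in control libraries (SD, n = 3 each). Rpl38 lay between, with -1.34 and -0.51. None of these families passed after adjustment by edgeR's quasi-likelihood test.

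**Figure D5:**
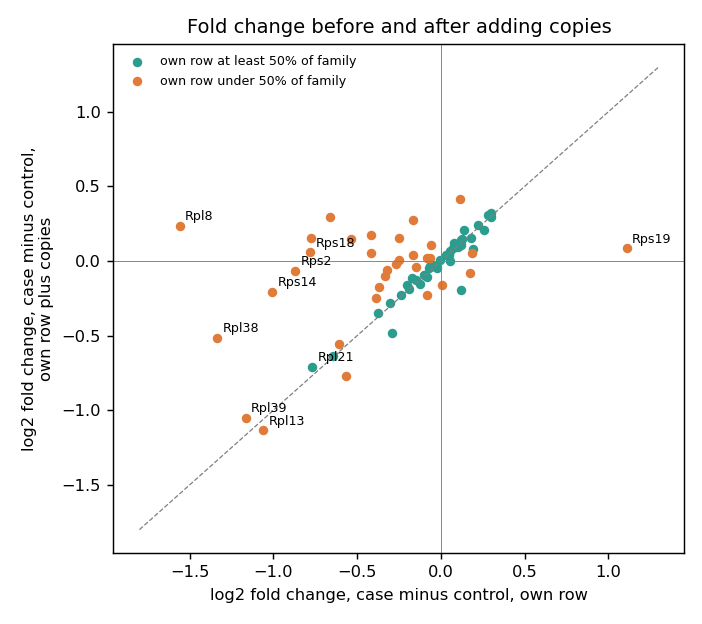
log2 fold change, case minus control, of the gene's own row (x axis) and of the own row plus its named copies (y axis) for 74 genes, coloured by whether the own row holds at least 50% of family counts, with a dashed line of equal values. Rpl8, Rps14, Rps2 and Rps19 lie far from the line with family values between -0.21 and 0.24, and Rpl13, Rpl39 and Rpl21 lie near it.

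Of the genes for ribosomal proteins whose names fall outside the rule, Gnb2l1 and Fau had positive values, and neither passed the test. Gnb2l1, the small subunit scaffold also called RACK1, averaged 709 ± 96.8 CPM in case and 636 ± 134 CPM in control libraries, with a log2 fold change of 0.16. Fau, which encodes the small subunit protein eS30 fused to a ubiquitin-like protein, averaged 100.1 ± 20.5 CPM in case and 89.6 ± 9.79 CPM in control libraries (SD, n = 3 each), with 0.16. The case and control libraries overlapped for both genes.

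Translation factors and other genes listed for TOP mRNAs had 0 TOP starts at the annotated first base in 16 promoters, 6 within 5 bases of it (37.5%) and 2 with CTTTC in the window (12.5%). They had 13 positive and 5 negative log2 fold changes of 18 tested, beside 53.7% negative over all tested genes. Their median was 0.02, beside -0.02 over all genes, and 0 passed by edgeR's quasi-likelihood test. The elongation factor Eef2 had 0.19 and the initiation factor subunit Eif3e had -0.42. The list took 0.827%, 0.992% and 0.868% of counts in case 5, 6 and 9, against 0.781%, 0.820% and 0.848% in control 5, 6 and 10. Control 5 was the lowest of its group and case 5 of its own.

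Ribosome biogenesis factors had 22 positive and 14 negative values of 36 tested, beside 53.7% negative over all tested genes. Their median was 0.04, and 1 gene had p under 0.05, a share below the 4.15% of all tested genes. That gene, Heatr1, a factor for transcription and processing of pre-rRNA, stood at 16.9, 15.0 and 14.9 CPM in case 5, 6 and 9, against 11.1, 10.5 and 9.32 CPM in control 5, 6 and 10. The groups did not overlap, as in 8.47% of all tested genes. Its log2 fold change was 0.59 (SE 0.19, adjusted p = 0.999 by edgeR's quasi-likelihood test), and that of Bop1, which acts in large subunit maturation, was 0.28. The biogenesis list took 0.136%, 0.170% and 0.160% of counts in the case libraries, against 0.158%, 0.129% and 0.135% in the control libraries, and control 5 was the highest of its group here.

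Genes that control ribosomal protein synthesis, such as those of the mTORC1 pathway, had 9 positive and 2 negative values of 11 tested. Over all tested genes 53.7% were negative. The median of the list was 0.06, with 0 passing. The S6 kinase gene Rps6kb1 had -0.27 and the cap-binding Eif4e had 0.12. For these 2 of the 11 genes the case and control libraries did not overlap in CPM, as in 8.47% of all tested genes. The list took 0.0737% to 0.0756% of counts in case libraries and 0.0629% to 0.0818% in control libraries.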

How the data were processed

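Total RNA of alveolar tissue was made into Ion Total RNA-Seq libraries, per the labels' protocols. The authors deposited whole-number counts per gene symbol for 6 libraries, not normalized so far as the values show. The sources used here give no aligner, counting program, strand use or genome build. Columns were matched by title.

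The whole table was filtered (filterByExpr), scaled by TMM and tested with edgeR 4.0.16 (quasi-likelihood, group only, Benjamini-Hochberg over all genes, threshold 0.05) in R 4.3.3, after a run on simulated data. CPM use TMM-adjusted totals, and log2 CPM a prior count of 2. Alternatives used DESeq2 1.42.0, limma-voom 3.58.1, other scalings and filters, each library left out and a title-number block.

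The members and lists were chosen with earlier results of these data known. Named genes were the 3 with the smallest p in each direction, fixed paralog pairs and stalk genes, and 2 per translation list. A rule by coding length could not be applied. Copies were matched to RefSeq (GRCr8) names of the form gene-ps or gene-l with a number, and 520 of 588 rows matched by LOC gene ID. Depth was 10886303 to 14433740 counts. Marker lists covered bone, epithelium, muscle, erythroid, tooth-forming, B and plasma, neutrophil and proliferating cells. A few genes of the lists are not reported here by name.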

Additional observations from a re-analysis of the deposited data

How the results depend on the processing

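In each setting tried 0 ribosomal protein rows and 0 genes of the other translation lists passed the threshold. Rows at 3 counts or fewer in at least 1 library numbered 7, against 3 at 0. Of 575 pairs of a named gene and a setting, 543 kept the direction and 32 did not, and 20 of 36 named genes turned in no setting. The title numbers are shared only for 5 and 6, and no label says what they mark. As a block, the number leaves case 9 and control 10 each alone, so these libraries add nothing to the group difference of that fit. With the number as replicate block, 10 rows had p under 0.05, beside 4.06% of all genes, and 55 were negative, with a median of -0.04, beside -0.02 over all genes. Under the block Rpl39l was 0.66, Rps27a 0.13 and Rpl8 0.34. With library totals Rpl39l was 0.027 and Rps27a 0.045, and with limma-voom Rpl39l was 0.43. With copies summed, chosen after seeing the data, Rplp1 was -0.19, Rplp2 0.29, Rpl8 0.24 and Rps18 0.061. Without both libraries numbered 5, also chosen afterwards, 23 rows had p under 0.05 (20 lower), beside 14.1% of all genes, with a smallest adjusted p of 0.137 by edgeR. Leaving out 1 library moved Rpl22 between -0.28 and 0.12, Rpl22l1 between -0.40 and 0.089, Rps27 between -0.34 and 0.013, Rpl36a between -0.67 and 0.10, Rpl39l between -0.56 and 0.32, Rpl3 between -0.12 and 0.21, Rpl3l between -0.90 and 0.42, Rplp0 between -0.12 and 0.23, Rplp1 between -0.17 and 0.37, Rpsa between -0.061 and 0.27, Rps27a between -0.21 and 0.17, Rpl41 between -0.51 and 0.044, and Gnb2l1 between -0.0020 and 0.31. The cause was not tested, except that summing copies adds their counts by construction. For Rpl7a, with 1 count in all, no difference was detectable at this depth.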
